A study of Mus musculus with 30 samples.

Results

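Genes of the dystrophin complex were followed through the formation of mouse retinal organoids. The set held 9 genes: dystrophin (Dmd), its homologue utrophin (Utrn), dystroglycan (Dag1), the dystroglycan ligand pikachurin (Egflam), the sarcoglycans Sgcb and Sgcd, the syntrophin Sntb1 and the dystrobrevins Dtna and Dtnb. They were taken as the rows of the gene and transcript tables that carry one of these symbols, which gave 9 of 45594 genes and 65 of 113468 transcripts. The genes were chosen with their course over the days and the Dmd transcript shares already known, so these values are given as a description, without p-values.

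The organoids were grown from 1 clone of induced pluripotent stem cells (iPSCs) of wild-type Nrl-GFP mice, a reporter strain in which the promoter of the rod factor Nrl drives green fluorescent protein. The clone had been made from fibroblasts of embryonic day 14.5 by lentiviral vectors for Oct3/4, Sox2, Klf4 and c-Myc, whose expression depends on doxycycline. RNA-seq libraries were made on 10 days, with 3 libraries per day that the labels call biological replicates. Each library of organoids pooled many of them, so that values are averages over organoids and over cell types, and fewer cells of a type and less RNA per cell cannot be told apart. Day 0 (D0) was the iPSCs, which were kept on feeder cells with LIF. D4 was whole aggregates, 36 per library. From D7 on the neural retina was dissected from the organoids, 30 per library at D7, 20 at D10 and 12 at each of D12, D15, D18, D22, D25 and D32. Medium was changed at D7, at D10 (taurine, 9-cis retinal and IGF1) and at D26, and oxygen was 5% until D10 and 20% from D10 on. Age and these culture steps cannot be told apart.

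Dystrophin ties the actin cytoskeleton to the membrane through dystroglycan, which binds laminin and other matrix proteins on the outer face. Sarcoglycans stabilise this link in muscle, while syntrophins and dystrobrevins sit on its inner face and hold channels and signalling enzymes in place. In retina, the complex is known at the photoreceptor ribbon synapse, where pikachurin binds dystroglycan and where mutations of DMD in people alter the electroretinogram, and at the endfeet of Müller glia, where the short product Dp71 helps to anchor Kcnj10 and Aqp4. Dmd is read from several promoters: the most upstream ones give the full-length protein Dp427, internal ones give the retinal form Dp260, the forms Dp140 and Dp116, and the widely expressed Dp71.

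The Dmd promoters are shown because the transcript results below turn on where Dmd transcripts start. Both sequences are the RefSeq entries of the mouse build GRCm38.p6, 250 bases before to 50 bases after a start site on the plus strand, 5′ to 3′. The first, at chrX:82948620-82948919, has as its start site the first base of the Dmd gene in the deposited table, where the retained-intron transcript Dmd-014 starts, and full-length Dmd-001 starts inside the same window at base 82948903. Capitals mark a CArG box, the element that serum response factor binds. The second, at chrX:85048045-85048344, lies after exon 62 at the Dp71 start. The retained-intron transcripts Dmd-002, Dmd-004 and Dmd-006 start inside it, at bases 85048295, 85048319 and 85048322, and the coding Dp71 transcripts Dmd-003 and Dmd-007 start further on, at base 85048413. Capitals mark GC boxes (GGGCGG, or CCGCCC on the other strand), the element that Sp factors bind.
Full-length Dmd start: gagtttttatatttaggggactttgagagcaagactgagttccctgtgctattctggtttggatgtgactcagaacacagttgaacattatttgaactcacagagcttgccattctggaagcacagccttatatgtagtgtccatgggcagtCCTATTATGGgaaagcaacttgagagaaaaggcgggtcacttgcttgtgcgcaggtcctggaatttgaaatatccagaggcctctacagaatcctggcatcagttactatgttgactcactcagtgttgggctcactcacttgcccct
Dp71 start: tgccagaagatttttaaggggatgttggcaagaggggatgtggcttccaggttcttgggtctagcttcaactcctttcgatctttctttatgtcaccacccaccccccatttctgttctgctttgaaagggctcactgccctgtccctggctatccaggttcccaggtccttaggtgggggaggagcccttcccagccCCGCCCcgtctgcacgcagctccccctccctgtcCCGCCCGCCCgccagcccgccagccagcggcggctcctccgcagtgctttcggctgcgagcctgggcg

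The letters of the Dmd promoters differed. G and C made up 62.7% of the Dp71 window and 45.7% of the full-length window, against a median of 52.7% over 32851 mouse promoter windows of the same length. Motifs were searched on both strands: the GC box, the TATA box (TATAAA), the core of the site of the photoreceptor factor CRX (TAATCC), an E-box (CACGTG) and the CArG box. The Dp71 window held 3 GC boxes, of which the last pair overlap, and no match to the other motifs. The full-length window held 1 CArG box, which starts 98 bases before the start site, and 1 TATA box, and no match to the other motifs. The TATA box match lies on the other strand at the upstream end of the window, far from the start site. Of all windows, 35.7% hold a GC box, 13.6% a TATA box, 7.06% the CRX core, 7.15% this E-box and 1.63% a CArG box. The motifs, and those marked in capitals, were picked after these sequences had been seen, so the matches describe the windows and nothing else.

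For Egflam, the member with the steepest course, the window at chr15:7398346-7398645 (minus strand, same source and build) is shown with its GC box in capitals. Its start site is that of Egflam-003, and Egflam-001 starts inside it, at base 7398351.
Egflam start: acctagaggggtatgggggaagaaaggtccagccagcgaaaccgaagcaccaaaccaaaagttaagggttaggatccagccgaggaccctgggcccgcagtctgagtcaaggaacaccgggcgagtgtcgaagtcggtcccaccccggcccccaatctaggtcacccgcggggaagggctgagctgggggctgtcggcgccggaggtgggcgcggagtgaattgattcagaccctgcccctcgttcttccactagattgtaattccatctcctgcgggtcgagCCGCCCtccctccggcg
Its GC content was 63%, and it held 1 GC box and no match to the TATA box, CRX core, E-box or CArG box.

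The 30 libraries held 16773624 to 24526704 estimated counts, and 19897 genes passed the filter on low counts, all 9 members among them. Gene levels are CPM on library sizes adjusted by TMM factors unless a level per transcript length (TPM) is named, and ± is the SD over the 3 libraries of a day. D4 replicate 2 had the lowest scaling factor (0.524). Libraries also fell into sets by the share of Rpl3 reads assigned to Rpl3 pseudogenes, which was 12.0% to 31.8% in the D0 and D7 libraries and replicate 2 of D10 to D25, and 70.9% to 86.5% in the other 18. Over D10 to D25, where both sets occur, edgeR's quasi-likelihood test with day in the model called 861 of 18291 genes (4.71%) between the sets. In this test 0 of the 9 members were called, which for so few genes is near that share, and 1 (Utrn, log2 difference -0.20) had an unadjusted p below 0.05. All D7 libraries had the low share, all D32 libraries the high one, and D18 held both. Day and set thus cannot be fully told apart for D18 against D7 and D32 against D18. Markers of neural retina were clearer on later days than at D7. The summed level of 5 retinal progenitor markers was 2630 CPM at D15, against 981 CPM at D7 and 749 CPM in iPSCs. This list includes Mki67 and Sox2, which had 555 and 187 CPM at D0. The 8 photoreceptor markers summed to 7210 to 9280 CPM at D32, against 8.17 to 17.7 CPM at D7. The 6 markers of pigment epithelium, a tissue that dissection aims to leave out, summed to 13.7 to 42.9 CPM at D32. At D7 and D10 they summed to 830 to 1010 and 1020 to 1180 CPM. The 6 muscle markers summed to at most 9.24 CPM on the mean of any day from D7 on, and the muscle factor Myod1 had a day mean of at most 0.111 CPM. Feeder or fibroblast markers (7 genes) summed to a day mean of at most 122 CPM from D4 on, against 485 to 1290 CPM at D0.

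**Figure D1:**
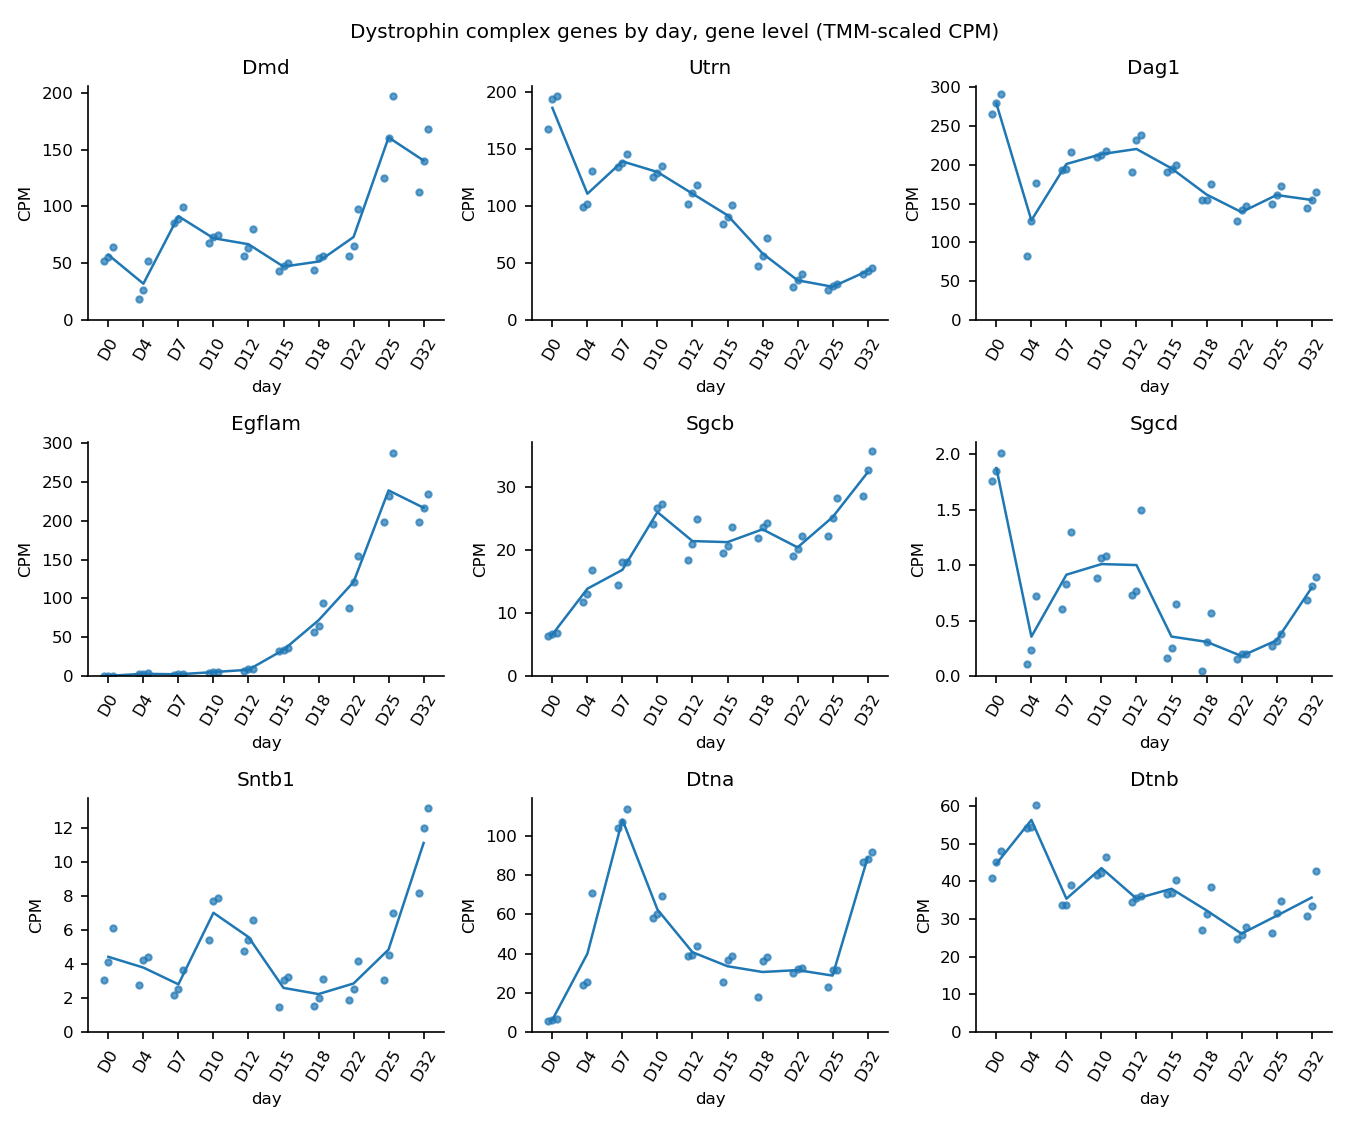
Level of the 9 genes by day in CPM on TMM-scaled library sizes (y axis from 0, own scale per gene); points are the 3 libraries of a day sorted by value and lines join the day means. Egflam climbs from D12 and Dmd from D22, Utrn declines after D10, Dtna is high at D7 and again at D32, and Sgcd stays at or below a day mean of 1.87 CPM.

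Over the 10 days, edgeR's quasi-likelihood F test called 9 of the 9 genes at an adjusted p below 0.05, where 91.4% of all 19897 tested genes were called. Since the genes were chosen for their course over these days, nothing is read from that count. The same holds for the counts of members called in single spans, which follow as a description. In the same fit 7 of 9 were called for D7 against D0 (Egflam, Dtna, Sgcb and Dmd higher, Utrn, Dag1 and Dtnb lower), where 58.4% of all genes were (28.8% higher, 29.6% lower). Without library scaling factors, and again without D0 replicate 2, 4 of the 9 were called in this span. For D18 against D7 the count was 6 (Egflam and Sgcb higher, Dtna, Utrn, Dmd and Sgcd lower), with 49.1% of all genes called. Genes called higher in this span made up 26.8% of all tested genes, and the other called genes were lower. For D32 against D18 the count of members was 6 (Sntb1, Egflam, Dtna, Dmd and Sgcb higher, Utrn lower), with 44.3% of all genes called (20.6% higher, 23.7% lower). Over 42 settings, the main one included, the count of members ranged from 4 to 8 for D7 against D0. It ranged from 4 to 7 for D18 against D7 and from 5 to 7 for D32 against D18. The median log2 change over the 9 was -0.34, -0.33 and 1.30 in these spans, and 0.00, 0.05 and -0.01 over all tested genes.

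Dmd, on chromosome X (82948870 to 85206141 in the deposited annotation, plus strand), was highest at D25 and D32. Its gene-level value was 57.3 ± 6.27 CPM at D0, 32.0 ± 17.4 at D4, 91.3 ± 7.63 at D7, 72.0 ± 3.54 at D10, 66.7 ± 12 at D12, 47.0 ± 3.41 at D15, 51.5 ± 6.90 at D18, 73.0 ± 21.8 at D22, 161 ± 36.2 at D25 and 140 ± 27.7 at D32. The libraries of D25 had 160, 197 and 125 CPM and those of D32 113, 140 and 168 CPM. On both days every library lay above every library of D0 to D22, and D25 and D32 overlapped. At D22 replicate 2 stood apart with 97.6 CPM, against 56.0 and 65.5 CPM in the other libraries of that day. The fitted log2 change was 0.67 ± 0.25 (SE) for D7 against D0, -0.83 ± 0.25 for D18 against D7 and 1.45 ± 0.25 for D32 against D18.

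The early and late Dmd levels were not made by the same transcripts, and the size of the gene-level change depends on how transcripts are added up. The gene table behaved like counts adjusted for the length of the transcripts in use, since it was 0.635 times the summed transcript counts of Dmd at D32 and 1.36 times that sum at D0. The sources used here do not state this step. In the plain sum of transcript counts, Dmd had 42.3 ± 6.39 CPM at D0, 64.1 ± 3.91 at D7, 63.5 ± 6.75 at D18, 232 ± 52.4 at D25 and 221 ± 42.4 at D32. On that scale the log2 change was -0.05 for D18 against D7 and 1.81 for D32 against D18. The lower gene-level value at D18 than at D7 was thus not seen in the summed reads, whereas D25 and D32 were the highest days on both scales.

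Dmd had 14 transcripts in the table. Full-length Dmd-001 has 79 exons, 14910 bases and 3678 coded residues. Dmd-002, Dmd-003, Dmd-004, Dmd-006 and Dmd-007 start after exon 62, at or within a short distance of the Dp71 start shown above. Of these 5, Dmd-003 (4438 bases, 617 residues) and Dmd-007 (1858 bases, 604 residues) are annotated as protein coding and the others as retained introns. Dmd-010, a fragment of 868 bases without a coding sequence, starts after exon 29, where the retinal form Dp260 starts. Shares below are shares of the summed estimated counts of the 14 transcripts in a library. No table transcript runs from the Dp260, Dp140 or Dp116 start to the end of the gene, so reads of such RNAs from the shared exons can be assigned to Dmd-001. The part of this in the Dmd-001 values was not tested.

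Dmd-001 made up 2.51% ± 0.385 of Dmd counts at D0, 1.62% ± 0.708 at D4, 5.39% ± 0.153 at D7, 9.81% ± 0.478 at D10, 14.4% ± 5.14 at D12, 42.1% ± 6.26 at D15, 67.3% ± 4.54 at D18, 74.8% ± 4.74 at D22, 77.8% ± 3.04 at D25 and 79.0% ± 4.21 at D32. The steepest part of this course lay between D18, with 71.0%, 68.8% and 62.2% in its libraries, and D12, with 14.6%, 19.5% and 9.22%. From D10 on, the libraries of each day up to D18 lay above those of the day before it, apart from D12, where replicate 3 (9.22%) lay under the D10 libraries. The counts behind these shares were low early on: Dmd-001 had on average 19.5 counts per library at D0, 5.47 at D4, 3880 at D25 and 3570 at D32.

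The 5 transcripts that start after exon 62 ran the other way. Their summed share was 89.7% ± 0.509 at D0, 90.9% ± 1.46 at D4, 83.2% ± 1.89 at D7, 76.3% ± 0.713 at D10, 73.2% ± 5.24 at D12, 44.2% ± 5.89 at D15, 19.2% ± 3.82 at D18, 11.8% ± 3.71 at D22, 6.84% ± 2.72 at D25 and 7.32% ± 3.98 at D32. In shares of counts the groups were level at D15: in the 3 libraries Dmd-001 held 35.8%, 48.3% and 42.0%, and the Dp71-start transcripts held 48.4%, 37.5% and 46.6%. The day at which they crossed depends on the unit, since per kilobase of transcript the Dp71-start group held 49.5% at D15 and Dmd-001 8.60%. Grouping by start was added after the shares of single transcripts had been seen.

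**Figure D2:**
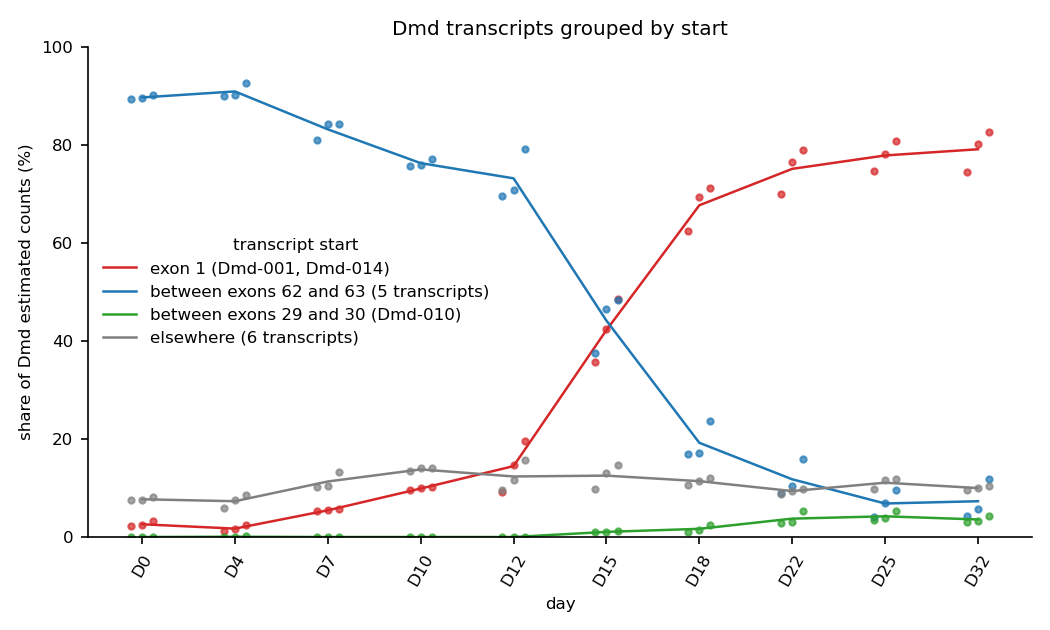
Share of the estimated counts of all Dmd transcripts (y axis, percent) by day for transcripts grouped by start; points are the 3 libraries of a day sorted by value and lines join day means. The Dp71-start group holds 7.32% at D32 and 89.7% at D0, the transcripts from exon 1 hold 79.1% at D32 and 2.61% at D0, and at D15 the groups are close at 44.2% and 42.2%.

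The share and the level of the Dp71-start transcripts did not move together on every day. Their summed count was 37.9 ± 5.61 CPM at D0, 20.0 ± 8.50 at D4, 53.3 ± 3.25 at D7, 39.9 ± 3.60 at D10, 36.9 ± 1.12 at D12, 18.7 ± 0.723 at D15, 12 ± 2.74 at D18, 12 ± 2.28 at D22, 15 ± 5.17 at D25 and 17.3 ± 12.6 at D32. The D32 libraries had 7.91, 12 and 31.5 CPM, a spread wider than on any other day. The largest share, at D4, thus went with a lower mean level than at D0, and the share at D7 was below that at D0 while the level was above it. Dmd-001 alone had 1.06 CPM at D0, 3.46 at D7, 7.35 at D12, 18 at D15, 42.8 at D18, 84.2 at D22, 181 at D25 and 173 at D32. Both levels differed between D18 and D12, with the Dp71-start level lower and the Dmd-001 level higher at D18. From D18 to D25 the Dmd-001 mean was higher on each day than on the one before, while the Dp71-start means stayed within their spread.

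Within the Dp71-start group, Dmd-003 was the main transcript at first. It held 68.0% ± 4.07 of Dmd counts at D0, 59.3% ± 6.50 at D7, 54.6% ± 9.46 at D12, 26.2% ± 0.253 at D15, 9.68% ± 5.30 at D18 and 3.19% ± 5.53 at D32. At D25 replicate 2 and D32 replicates 1 and 2 Dmd-003 is listed at 0, while the other libraries of those days had 518 counts at D32 and 246 and 156 at D25. Dmd-007, which shares 15 exons with Dmd-001 and the start of Dmd-003, had 227, 78.6 and 160 counts in the libraries where Dmd-003 is listed at 0. How such reads are shared between these transcripts is an estimate, so single transcripts of this group are less certain than their sum. Dmd-006 had 0.901% ± 0.431 at D32 and 11.6% ± 4.45 at D0, and Dmd-007 2.23% ± 1.27 at D32 and 9.02% ± 0.947 at D0.

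The fragment at the Dp260 start appeared late. Dmd-010 is listed at 0 in every library of D0, D7, D10 and D12 and in 2 of the 3 libraries of D4, where replicate 1 had 0.614 counts. At D15 its libraries had 8.71, 8.70 and 8.08 counts, at D18 17.2, 16 and 32.7, at D22 78.2, 88.6 and 60.5, at D25 183, 334 and 137, and at D32 116, 195 and 179. No library of D0 to D12 reached a library of D15 or later. Its share of Dmd counts was 4.23% ± 0.962 at D25 and 1.05% ± 0.0847 at D15. Dmd-010 is short, and per transcript length it had 21.2 ± 5.44 TPM at D32 and 24.2 ± 10.9 TPM at D25, where Dmd-001 had 26.9 ± 3.37 TPM at D32 and 25 ± 6.44 TPM at D25. Dmd-009, a retained-intron fragment of 17 exons that starts after exon 1, had a similar course, with at most 1.18 counts in any library up to D10, 7.76, 4.85 and 0 counts at D12, and day means of 113 at D25 and 20.3 at D15.

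The remaining transcripts held small shares of the counts. Dmd-013, of 596 bases near the 3′ end, held 2.15% ± 0.105 at D32 and 7.70% ± 0.343 at D0, and Dmd-005, a retained-intron fragment that starts within exon 54, held 5.89% ± 0.960 at D25 and 0.00243% at D0. Dmd-012, at the Dp140 start after exon 44, is listed at 0 at D0 and D4 and held 0.787% ± 0.125 at D12 and 0.638% ± 0.293 at D7. Dmd-008, at the Dp116 start after exon 55, was not above 0.0591% on any day. Because counts grow with length, shares per kilobase give the long Dmd-001 less weight: on that scale it held 0.400% at D0, 2.53% at D12 and 26.9% at D32, and the Dp71-start group 68.8% at D0, 60.2% at D12 and 15.4% at D32. The direction was the same on both scales, but the crossing came later per kilobase. There the Dp71-start group still held 31.7% ± 1.02 at D18, where Dmd-001 held 18.4% ± 2.29. At D22 they held 21.9% ± 6.68 and 24.3% ± 4.44, within their spread, and at D25 13.4% ± 3.06 and 24.9% ± 1.67. Short transcripts weigh more on this scale. The 6 transcripts outside the exon 1, Dp71 and Dp260 starts held 30.7% per kilobase at D0, 41.7% at D18 and 36.7% at D32. Dmd-013, 1 of them, held 30.7% at D0 and 18.4% at D32.

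**Figure D3:**
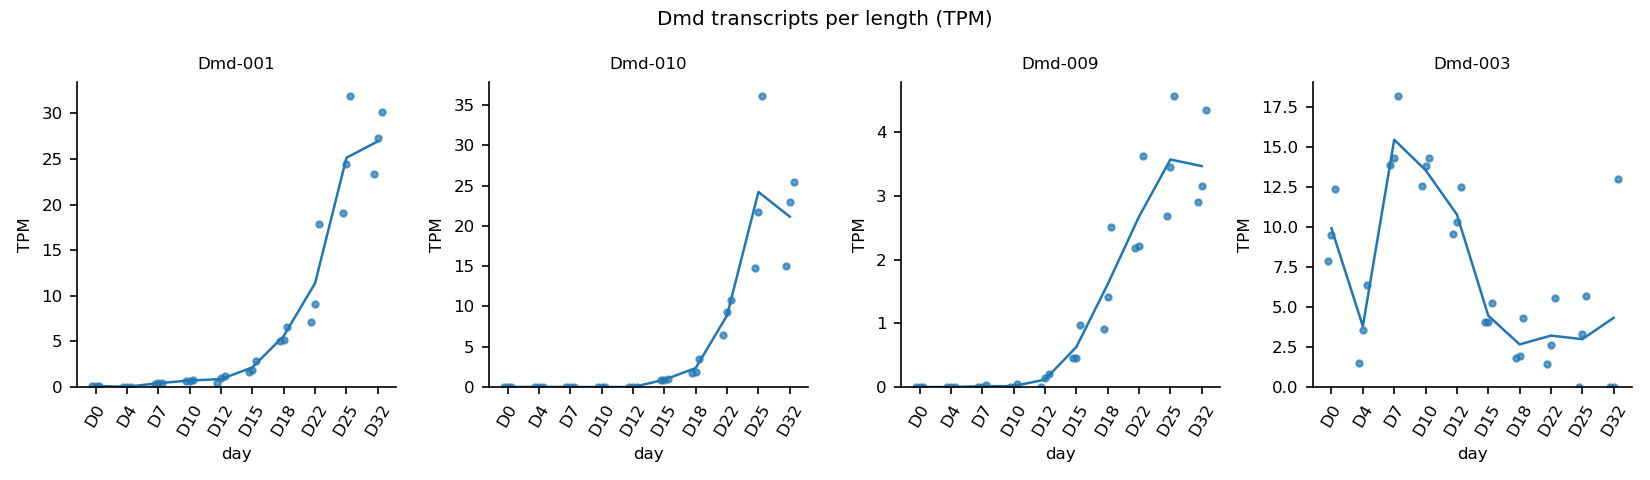
Level per transcript length (TPM, y axis from 0, own scale per panel) of Dmd-001, Dmd-010, Dmd-009 and Dmd-003 by day; points are the 3 libraries of a day sorted by value and lines join day means. Dmd-010 is listed at 0 up to D12 apart from 1 D4 library and has 24.2 TPM at D25, while Dmd-003 has 4.34 TPM at D32, where 2 libraries are at 0, and 15.5 TPM at D7.

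Utrn, on chromosome 10 (12382188 to 12861735, minus strand), encodes utrophin, which resembles full-length dystrophin and can stand in for it in mdx mouse muscle. It was lowest at D25, with 29.8, 26.3 and 31.6 CPM, and highest in iPSCs, with 194, 197 and 168 CPM. Its day means were 186 CPM at D0, 111 at D4, 140 at D7, 130 at D10, 111 at D12, 92.0 at D15, 58.5 at D18, 34.9 at D22, 29.2 at D25 and 43.2 at D32. D10 overlapped D7, from D12 to D22 each day lay below the day before it without overlap, D22 and D25 overlapped, and the D32 libraries (45.3, 43.4 and 40.8 CPM) lay above those of D25 and D22. The log2 change was -0.42 ± 0.13 (SE) for D7 against D0, -1.25 ± 0.14 for D18 against D7 and -0.44 ± 0.14 for D32 against D18. At D0 the 5 pluripotency markers (3890 to 4160 CPM summed) and the feeder markers were also highest, and their part in the D0 level was not tested.

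The balance of Utrn and Dmd moved towards Dmd. Per length, the ratio of Utrn to all Dmd transcripts was 0.854 ± 0.066 at D0, 1.04 ± 0.380 at D4, 0.408 ± 0.0334 at D7, 0.519 ± 0.0149 at D15, 0.301 ± 0.0457 at D18, 0.135 ± 0.0528 at D22, 0.0507 ± 0.0159 at D25 and 0.0833 ± 0.0217 at D32. The Dmd TPM contains the short fragments, which weigh heavily per length. Set against Dmd-001 alone, the long Dmd transcript of the table (the Utrn transcript has 12382 bases), Utrn had 23.0 ± 2.51 TPM and Dmd-001 0.109 ± 0.0248 TPM at D0, Utrn 9.23 ± 2.19 and Dmd-001 5.59 ± 0.871 TPM at D18, and Utrn 8.14 ± 0.610 and Dmd-001 26.9 ± 3.37 TPM at D32. The order of the long transcripts was thus opposite at D32 and D0, and at D22 Utrn had 5.62 ± 0.860 TPM and Dmd-001 11.4 ± 5.74 TPM.

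**Figure D4:**
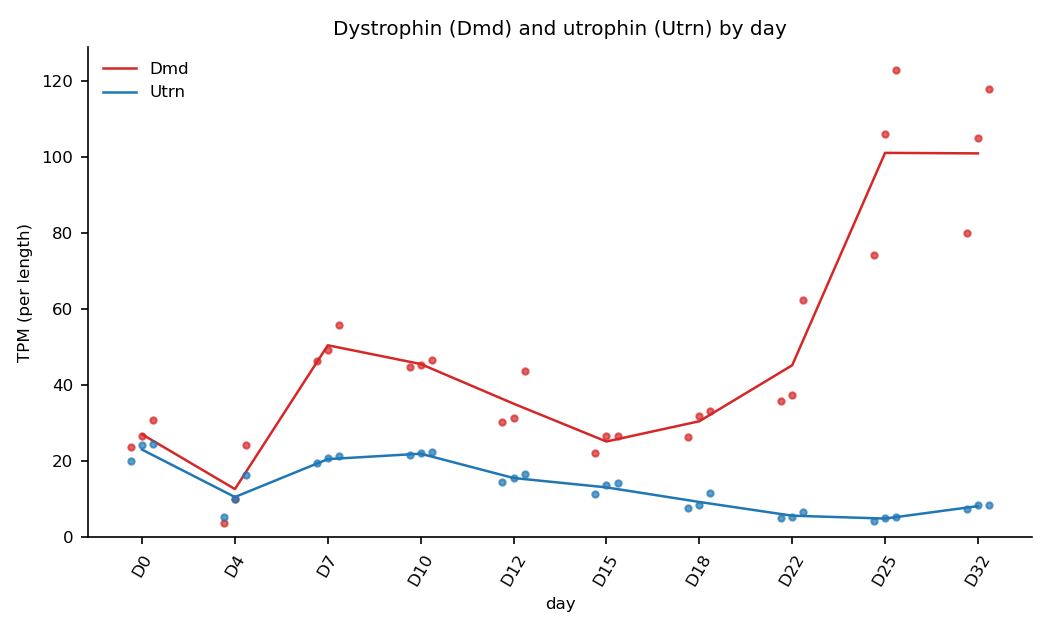
Level per transcript length (TPM, y axis from 0) of Dmd, summed over its 14 transcripts, and of Utrn by day; points are the 3 libraries of a day sorted by value and lines join day means. Dmd lies at 27.1 TPM at D0, 101 at D25 and 101 at D32, and Utrn at 23.0 TPM at D0, 4.86 at D25 and 8.14 at D32.

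Dag1, on chromosome 9 (108204634 to 108263958, minus strand), encodes dystroglycan, the matrix receptor of the complex, and was present on every day. It had 279 ± 12.4 CPM at D0, 129 ± 46.9 at D4, 201 ± 13.4 at D7, 214 ± 4.09 at D10, 220 ± 25.6 at D12, 195 ± 4.62 at D15, 162 ± 11.5 at D18, 139 ± 9.56 at D22, 161 ± 10.8 at D25 and 155 ± 10.4 at D32. The D0 libraries lay above those of every other day, D7 to D15 overlapped in the order of levels, and so did D18 to D32. The D4 libraries ran widest, with 82.3, 127 and 176 CPM. The ratio between the highest and lowest day means was 2.17, against 5.03 for Dmd and 6.37 for Utrn.

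Egflam, on chromosome 15 (7206120 to 7398395, minus strand), encodes pikachurin, a matrix protein that binds dystroglycan in the photoreceptor synaptic cleft. Its course was the steepest of the 9 genes. It had 0.144, 0.270 and 0.402 CPM in the iPSC libraries, 1.96, 2.56 and 2.17 at D7, and 9.58, 8.51 and 6.15 at D12. The D15 libraries had 31.8, 33.4 and 36.0 CPM, the D18 libraries 56.8, 65.0 and 93.4, the D22 libraries 88.2, 154 and 121, the D25 libraries 232, 287 and 198 and the D32 libraries 198, 235 and 217. Neighbouring days did not overlap between D7 and D18, whereas D18 overlapped D22 and D25 overlapped D32. The mean at D32 was 97.0 times that at D7 and 3.02 times that at D18. On the log2 scale D18 was higher than D7 by 5.00 ± 0.25 (SE) and D32 higher than D18 by 1.59 ± 0.20. Photoreceptor markers ran alongside: Crx, the photoreceptor transcription factor, had a mean of 39.3 CPM at D12, 247 at D15, 469 at D18 and 1080 at D25. Their part in the Egflam course was not tested.

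Egflam transcripts differed in share between days. Over all 10 days the mean share of Egflam-001 ran from 39.5% to 100% and that of Egflam-002 from 0.0% to 47.3%. These extremes lay on other days than those given next. Egflam-001 (1017 residues) held 69.7% ± 24.4 of Egflam counts at D7, 83.7% ± 5.14 at D12, 90.3% ± 2.97 at D18 and 95.8% ± 1.22 at D32, and Egflam-002 (1009 residues) held 24.3% ± 21.6, 15.0% ± 6.83, 5.36% ± 2.28 and 1.28% ± 0.654 on these days. At D7 the shares rest on means of 21.7 counts of Egflam-001 and 7.96 counts of Egflam-002 per library. Egflam-001 had a mean of 4660 counts per library at D32 and 140 at D12.

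Sgcb and Sgcd encode beta- and delta-sarcoglycan, membrane subunits that in muscle form a complex with other sarcoglycans. Sgcb (chromosome 5) had 32.7, 28.6 and 35.7 CPM at D32 and 6.35, 6.64 and 6.80 CPM at D0, the days with the highest and lowest means. Between them it had 16.9 ± 2.09 CPM at D7, 26 ± 1.70 at D10 and day means of 20.4 to 25 CPM from D12 to D25, where neighbours in the order of levels overlapped. The log2 change was 1.35 ± 0.15 (SE) for D7 against D0 and 0.47 ± 0.14 in each of the later spans. Sgcd (chromosome 11) was near the limit of detection. Its lowest day was D22, with 0.197, 0.149 and 0.195 CPM, which is a mean of 3.67 counts of its main transcript per library, and its highest D0, with 1.76, 1.85 and 2.01 CPM. At D32 it had 0.889, 0.682 and 0.814 CPM, above each library of D15 to D25. The transcript shares of Sgcd rest on at most 34.7 counts per library on a day's mean and are not described further.

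Sntb1 (chromosome 15) encodes a beta-syntrophin, an adaptor that binds dystrophin and dystrobrevin, and was low. Its level was highest at D32, with 13.2, 12.0 and 8.21 CPM, and lowest at D18, with 1.53, 2.03 and 3.15 CPM, a log2 difference of 2.32 ± 0.37 (SE). A smaller high was seen at D10, with 7.92, 5.42 and 7.73 CPM. The D32 libraries lay above those of every other day, and the other neighbours in the order of levels overlapped.

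The dystrobrevins, which bind dystrophin and syntrophins on the inner face of the membrane, differed in course. Dtna, alpha-dystrobrevin (chromosome 18), had 104, 107 and 114 CPM at D7, its highest day, and 5.67, 6.27 and 6.75 CPM at D0. It was lower afterwards, with 62.5 ± 6.01 CPM at D10, 40.7 ± 2.78 at D12 and day means of 28.8 to 33.5 CPM from D15 to D25. At D32 its libraries had 86.6, 92.0 and 88.1 CPM, above all those of D10 to D25 and below those of D7. The log2 change was 4.11 ± 0.32 (SE) for D7 against D0, -1.82 ± 0.29 for D18 against D7 and 1.53 ± 0.29 for D32 against D18. At D4 replicate 3 had 70.9 CPM, against 25 and 23.8 CPM in the other libraries. The long transcript Dtna-202 (682 residues) held 78.0% to 97.0% of Dtna counts on the days' means.

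Dtnb, beta-dystrobrevin (chromosome 12), was steadier in level and not in transcripts. Its lowest day mean was 26.1 ± 1.65 CPM at D22 and its highest 56.3 ± 3.50 CPM at D4, a ratio of 2.15. Of its 25 transcripts, Dtnb-004, annotated as a target of nonsense-mediated decay, held 47.1% ± 5.40 of Dtnb counts at D0, 16.7% ± 8.41 at D7, 13.9% ± 8.51 at D18 and 1.32% ± 2.29 at D32. Dtnb-014, which codes for 602 residues, held 19.2% ± 7.45 at D0, 32.9% ± 2.02 at D7, 19.3% ± 1.11 at D18 and 12.5% ± 4.13 at D32, and Dtnb-013 1.28% ± 1.15, 2.17% ± 1.94, 16.5% ± 6.43 and 13.7% ± 3.29. The libraries of a day differed widely, and reads are shared among many similar transcripts of this gene.

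Late Dmd, Sntb1 and Dtna levels came at a time when markers of Müller glia moved in different directions. The 12 glial markers summed to 2070 to 2340 CPM at D18, 1320 to 1560 at D25 and 1360 to 1660 at D32, and none was at 0 on these days. Within the list, Rlbp1 had 164 CPM at D32 and 104 CPM at D25. Slc1a3 had 158 CPM at D32 and 20.2 CPM at D18, and Abca8a 9.45 CPM at D32 and 0.409 CPM at D18, whereas Dkk3 had 392 CPM at D32 and 1180 CPM at D18. The 8 photoreceptor markers summed to 405 to 673 CPM at D18, 3620 to 5400 at D25 and 7210 to 9280 at D32. The 6 bipolar markers summed to 418 to 478 CPM at D18, 202 to 283 at D25 and 549 to 621 at D32, so they were lower at D25, the highest day of Dmd, than at D18. The 4 astrocyte markers summed to 6.04 to 6.59 CPM at D18, 4.40 to 7.39 at D25 and 22.6 to 41.1 at D32, none at 0, and Gfap made up most of the D32 sum with 23.1 ± 7.76 CPM. The part of any of these cell types in the members' levels was not tested.

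By Pearson's r over the 10 day means, taken as log2(CPM + 1), among 12102 named genes that reached a day mean of 10 CPM, Dmd was most like Rlbp1 (0.931), Lyst (0.924) and Syap1 (0.921). Utrn was most like Col18a1 (0.986), Tead1 (0.984) and Gpc4 (0.983), and Dag1 like Pdgfc (0.952), Tm9sf2 (0.939) and Csf1 (0.929). Egflam was most like Nlk and Dcaf11 (0.993 each) and Iqsec3 (0.992), and Sgcb like Spon1 (0.982), Zfp329 (0.979) and Ptprn2 (0.978). The values for Dtna were 0.970 with Ktn1, 0.955 with Col22a1 and 0.951 with Nebl, and those for Dtnb 0.938 with Slc9b2 and 0.926 each with Ankrd27 and Pnpla2. Sgcd reached 0.912 with Pign, 0.906 with Zdhhc18 and 0.898 with Wnk1, and Sntb1 0.895 with Tmem194b, 0.874 with Fam134b and 0.864 with Cep250. These are descriptions over 10 points that share libraries and days.

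Other genes of the pathway were taken as 4 lists of 53 genes, none of them a member, of which 51 passed the filter. Cav3, the caveolin of muscle, did not pass and had at most 0.0191 CPM on a day's mean. With edgeR's quasi-likelihood test and Benjamini-Hochberg adjustment over all 19897 genes, 35 of 51 changed for D7 against D0 (20 higher, 15 lower), 25 for D18 against D7 (17 higher, 8 lower) and 27 for D32 against D18 (21 higher, 6 lower). That is 68.6%, 49.0% and 52.9%, against 58.4%, 49.1% and 44.3% of all tested genes. Genes higher at D32 than at D18 made up 41.2% of the 51 and 20.6% of all tested genes, a description of lists that were chosen with earlier results of these data known.

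**Figure D5:**
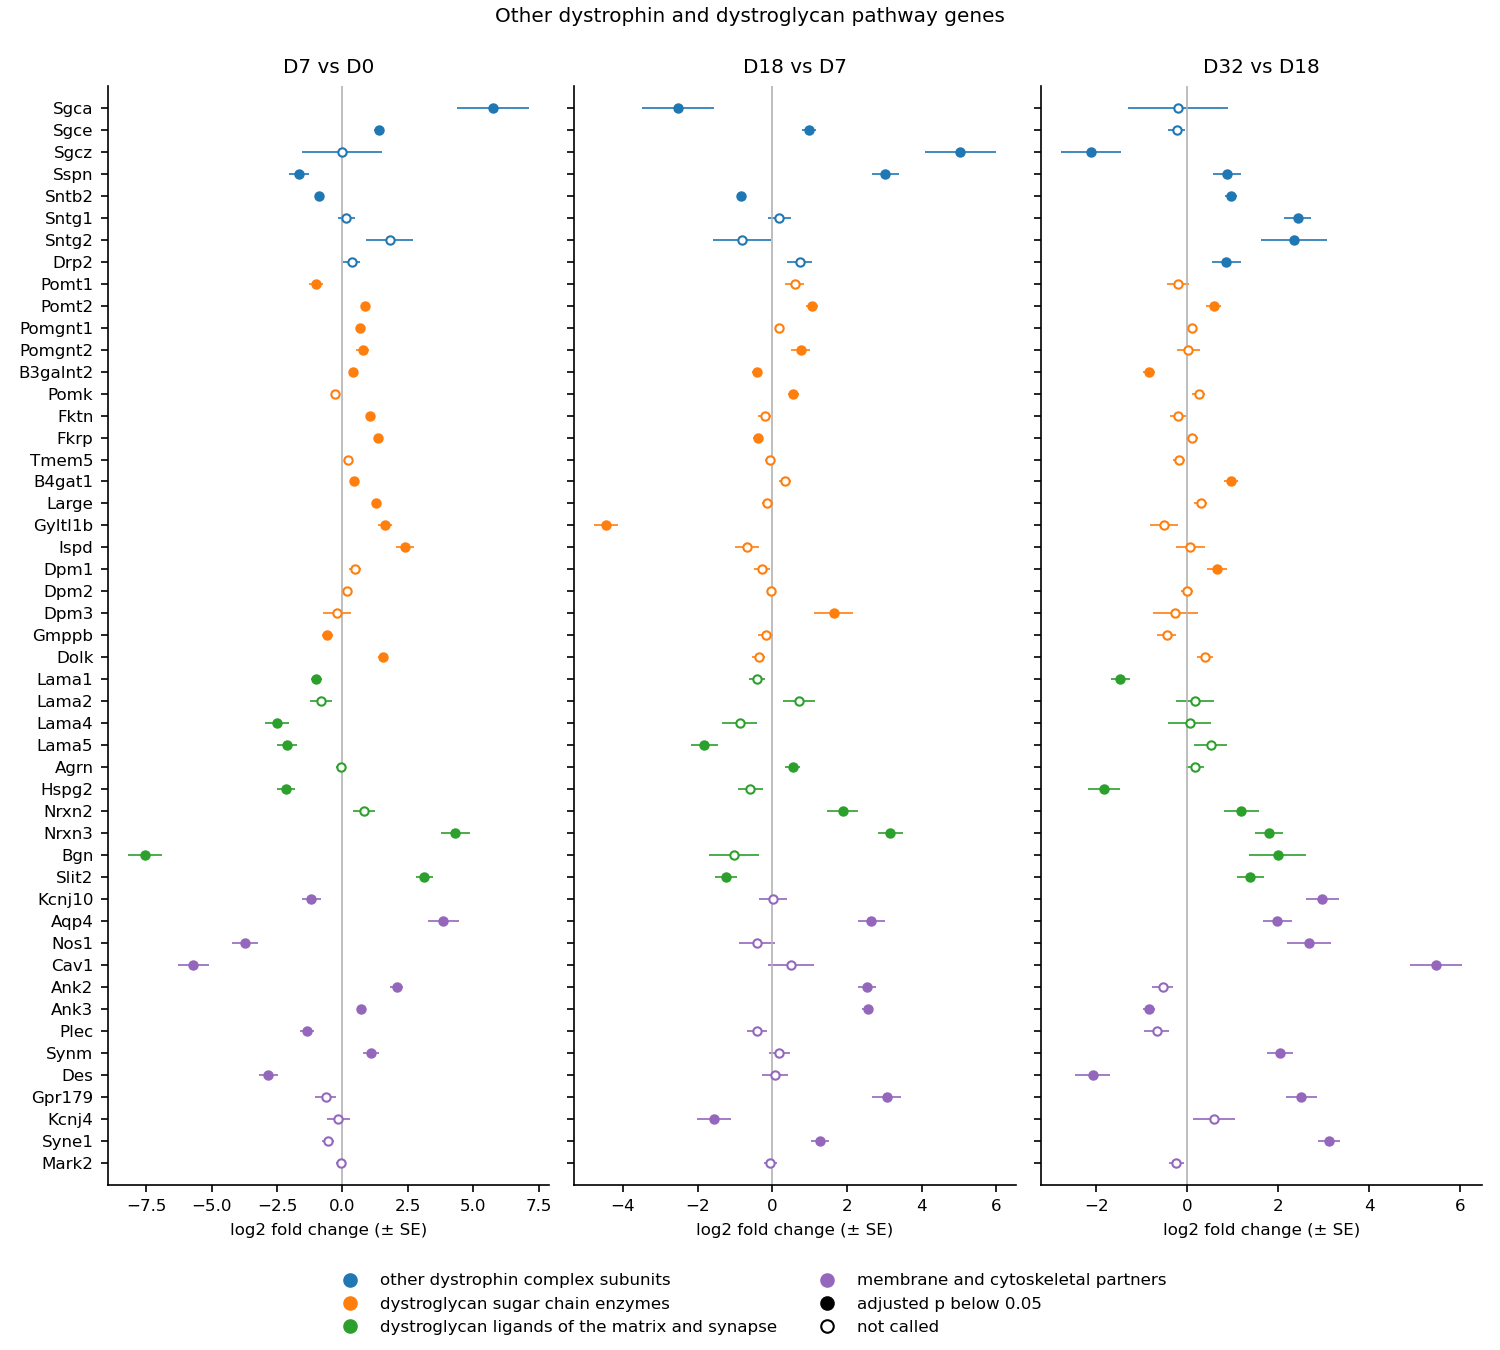
Log2 fold change ± SE (x axis, own scale per panel) of 49 tested pathway genes outside the 9 members for D7 against D0, D18 against D7 and D32 against D18, with colour for the list and filled points for an adjusted p below 0.05. In the D32 panel 19 filled points lie right of 0 and 6 left of it, and most sugar chain enzymes lie close to 0.

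Among 9 tested subunits of the complex outside the set, 5 changed for D7 against D0 (2 higher, 3 lower), 6 for D18 against D7 (4 higher, 2 lower) and 7 for D32 against D18 (6 higher, 1 lower). That is 55.6%, 66.7% and 77.8% of the list, where 58.4%, 49.1% and 44.3% of all tested genes were called, so the first count was near the background. Sspn, sarcospan, fell by 1.66 ± 0.37 (SE) on the log2 scale at D7 against D0 (adjusted p = 0.0004) and was higher by 3.02 ± 0.36 at D18 against D7 (adjusted p = 1.69e-07), at 4.12 ± 1.2 CPM. The gamma-syntrophins Sntg1 and Sntg2 rose by 2.43 ± 0.29 and 2.35 ± 0.73 at D32 against D18 (adjusted p = 2.11e-07 and 0.0101), to 4.76 ± 0.836 and 1.17 ± 0.274 CPM. Alpha-sarcoglycan (Sgca) and zeta-sarcoglycan (Sgcz) had day means of at most 1.34 and 0.805 CPM. Sgca was higher at D7 (1.34 ± 0.595 CPM) than at D0 (0.0248 ± 0.0429 CPM, adjusted p = 0.000888) and fell at D18 against D7 (0.225 ± 0.189 CPM, adjusted p = 0.0301), a call lost with DESeq2, with the library set as a term and without any of 4 single libraries (D18 replicates 1 and 2, D7 replicates 2 and 3; largest adjusted p 0.116). Sgcz was higher at D18 than at D7 (0.805 ± 0.209 and 0.0173 ± 0.0300 CPM, adjusted p = 0.000104) and fell by 2.12 ± 0.66 at D32 against D18 (adjusted p = 0.0109). The Sgcz call of D32 was lost without D32 replicate 1 (adjusted p = 0.0576) and that of Sntg2 without D18 replicate 2 (adjusted p = 0.0546). The highest genes without a call were Drp2, dystrophin-related protein 2, in the first spans (log2 change 0.35 ± 0.34 and 0.73 ± 0.33, adjusted p = 0.391 and 0.0692) and Sgce, epsilon-sarcoglycan, in the last (42.3 ± 3.08 CPM at D32 and 49.6 ± 4.87 CPM at D18). Drp2 was called for D18 against D7 under 5 of the 41 other settings: the sum of transcript counts, and without D18 replicate 2, D7 replicate 1 or D4 replicate 2 or 3 (smallest adjusted p 0.0114).

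The 18 enzymes that build the laminin-binding sugar chain of dystroglycan were mostly higher at D7 than at D0. For D7 against D0, 13 were called, 11 of them higher, which is 72.2% of the list called and 61.1% higher, where 58.4% of all tested genes were called and 28.8% higher. For D18 against D7, 7 were called (4 higher, 3 lower), 38.9% of the list and 49.1% of all tested genes. For D32 against D18, 4 were called (3 higher, 1 lower), 22% of the list and 44.3% of all tested genes. The early rises were led by Ispd (2.39 ± 0.35 on the log2 scale, adjusted p = 1.76e-06), Gyltl1b (1.62 ± 0.27, adjusted p = 1.59e-05) and Dolk (1.54 ± 0.18, adjusted p = 7.39e-08). Gyltl1b, the table's name for Large2, a homologue of the glycosyltransferase Large, then fell to 2.70 ± 0.434 CPM at D18, against 59.1 ± 8.76 CPM at D7 (log2 change -4.45 ± 0.32, adjusted p = 2.54e-11). Its relative Large had 36.0 CPM at D18 and 39.5 CPM at D7 and was not called. Pomt2, which with Pomt1 adds the first mannose, rose to 90.6 ± 4.62 CPM at D18, against 43.5 ± 2.36 CPM at D7 (adjusted p = 6.74e-06), and Dpm3 rose by 1.65 ± 0.53 (adjusted p = 0.0114). In the last span B4gat1 rose by 0.96 ± 0.16 and Dpm1 by 0.65 ± 0.22, and B3galnt2 fell by 0.85 ± 0.13 (adjusted p = 2.13e-05, 0.0192 and 9.8e-06). The Dpm3 call was lost without D18 replicate 3 or D7 replicate 3 (largest adjusted p 0.081), and the Dpm1 call without D18 replicate 1 or 2 or D32 replicate 1 or 3 (largest 0.0756). Pomgnt1, at 68.2 ± 5.06 CPM at D32 and 63.3 ± 5.06 at D18, was the highest enzyme without a call in the later spans, and Dpm2 in the first (33.9 ± 1.30 CPM at D7 and 30.4 ± 5.69 at D0). Pomgnt1 was called for D18 against D7 in the sum of transcript counts (adjusted p = 0.0341), and Dpm2 for D7 against D0 without D0 replicate 3 (adjusted p = 0.023).

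Of 11 ligands of dystroglycan in matrix and synapse, 8 changed for D7 against D0 (3 higher, 5 lower), 6 for D18 against D7 (4 higher, 2 lower) and 7 for D32 against D18 (5 higher, 2 lower). That is 72.7%, 54.5% and 63.6% of the list, where 58.4%, 49.1% and 44.3% of all tested genes were called, in both directions as well. Nrxn3, a presynaptic adhesion protein, rose in each span: it reached 107 ± 12 CPM at D32, against 30.6 ± 3.71 CPM at D18 (log2 change 1.80 ± 0.30, adjusted p = 2.56e-05), and had been higher at D18 than at D7 by 3.16 ± 0.34 (adjusted p = 2.76e-08) and at D7 than at D0 by 4.32 ± 0.54 (adjusted p = 1.88e-07). Its relative Nrxn2 rose by 1.88 ± 0.41 at D18 against D7 (adjusted p = 0.000412). The proteoglycan biglycan (Bgn) fell to 1.99 ± 0.260 CPM at D7, against 377 ± 133 CPM at D0 (adjusted p = 3.29e-10), alongside the feeder and fibroblast markers, whose part was not tested. It was then higher at D32 than at D18 (3.88 ± 2.61 and 0.971 ± 0.614 CPM, adjusted p = 0.0124), a call lost without D32 replicate 1 or D18 replicate 2 (largest adjusted p 0.095). Slit2, an axon guidance protein, rose by 3.12 ± 0.32 at D7 against D0 (adjusted p = 8.74e-09). Perlecan (Hspg2) fell to 26.6 ± 9.67 CPM at D32, against 95.1 ± 13.5 CPM at D18 (adjusted p = 9.65e-05), and was not called for D18 against D7 (log2 change -0.59 ± 0.33), except with only the 6 libraries of these days or without D4 replicate 3 (smallest adjusted p 0.00314). Agrin (Agrn), high throughout, had 424 ± 64.2 CPM at D32 and 377 ± 22 CPM at D18 and was not called in the first and last spans.

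Of 13 tested membrane and cytoskeletal partners, 9 changed for D7 against D0 (4 higher, 5 lower), 6 for D18 against D7 (5 higher, 1 lower) and 9 for D32 against D18 (7 higher, 2 lower). That is 69.2%, 46.2% and 69.2% of the list, where 58.4%, 49.1% and 44.3% of all tested genes were called, so the count for D18 against D7 was near the background. The channels that Dp71 helps to anchor in glia were higher at D32 than at D18: Kcnj10 had 12.5 ± 2.00 and 1.59 ± 0.244 CPM (log2 change 2.97 ± 0.37, adjusted p = 2.93e-07), and Aqp4 rose by 1.98 ± 0.32 (adjusted p = 1.78e-05). Both are also on the list of Müller glia markers. The astrocyte markers had a higher sum at D32 too, 28.9 CPM against 6.34 CPM at D18 on the mean, with Gfap at 23.1 and 0.813 CPM, and their part in these changes was not tested. Aqp4 had 5.63 ± 1.83 CPM at D18 and 0.882 ± 0.338 CPM at D7 (2.66 ± 0.36, adjusted p = 1.23e-06), and more at D7 than at D0 (0.0558 ± 0.0551 CPM, adjusted p = 4.24e-06). Gpr179, an orphan receptor of the bipolar cell synapse to which pikachurin has been shown to bind in mouse retina, rose by 3.07 ± 0.39 at D18 against D7 (adjusted p = 3.64e-07), to 9.49 ± 0.487 CPM. Cav1, caveolin 1, had 40.0 ± 6.55 CPM at D32 and 0.900 ± 0.618 at D18 (5.46 ± 0.57, adjusted p = 2.02e-08), and had fallen by 5.70 ± 0.59 at D7 against D0 (adjusted p = 9.57e-09), alongside the feeder and fibroblast markers. Syne1, a nuclear envelope protein, had 123 ± 4.70 CPM at D32 and 14.2 ± 1.38 at D18 (adjusted p = 1.11e-10). Nos1, the neuronal nitric oxide synthase that syntrophin binds, fell to 2.07 ± 1.54 CPM at D7, against 27.5 ± 2.45 CPM at D0 (adjusted p = 4.08e-07). Ank3, an ankyrin, rose by 2.56 ± 0.14 at D18 against D7 (adjusted p = 1.86e-13). Mark2 in the first spans and Ank2 in the last (440 ± 18 CPM at D32, 642 ± 122 CPM at D18, adjusted p = 0.0542) were the highest genes without a call. Ank2 was called under 10 of the 41 other settings.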

How the data were processed

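Directional poly(A) RNA-seq libraries from 10 days, 3 per day, were used from the tables as deposited. Per the submitters' processing notes, the tools were Trimmomatic 0.36, kallisto 0.42.4 and edgeR (version not given in the sources used here) on build GRCm38.p4. The deposited gene and transcript tables hold estimated counts, and a further deposited gene table holds a normalised CPM-like signal, used for an alternative. How the authors made gene values of transcript values is not given in the sources used here. Each table had 3 columns of no sample here, 9 in all, which were not used.

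Estimated counts were rounded and fitted with edgeR 4.0.16 (quasi-likelihood test, R 4.3.3) over all 30 libraries with day as a factor, TMM factors (0.524 to 1.162) and filterByExpr (minimum count 10, minimum total count 15), which kept 19897 of 45594 genes and at least 99.73% of each library's counts. Adjusted p is Benjamini-Hochberg over all genes kept, with a threshold of 0.05, and the test was tried on simulated data. TPM and transcript shares were computed with pandas 2.3.3 from the transcript table, with TPM per library and not TMM-scaled. With 16773624 to 24526704 counts per library, a gene at 0.1 CPM rests on few counts, and transcript estimates carry assignment error beside counting error. The labels call the 3 libraries of a day biological replicates without saying how they were separated, so p-values measure the spread between these libraries.

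The members, the pathway and marker lists and the split of libraries by Rpl3 pseudogenes were chosen with earlier results of these data known. Named are all members; Dmd transcripts with a mean share of at least 5% on a day; of the other members, transcripts that reach 20% and differ by 20 percentage points between days; of each pathway list and span, up to 3 called genes with the largest change and the highest gene without a call; and the 3 genes most like each member, predicted genes left out. Dmd-008, Dmd-009, Dmd-010 and Dmd-012, Large, and Aqp4 at D32 were named outside this rule after their values were seen. The identical rows of Nrxn2 were counted once, a choice made after the first counts. The plain transcript sum, the grouping of Dmd transcripts by start and the test between library sets were added after seeing the data. Alternatives were RLE or no scaling factors, other filters, DESeq2 1.42.0, limma 3.58.1, a replicate block, the library set as a term, the 6 libraries of a span alone, shares per kilobase or pooled, and each library left out in turn. Promoters are RefSeq's for GRCm38.p6, found for 7 of the 9 members. A few genes of the pathway lists are counted in the lists and not reported by name here.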

Additional observations from a re-analysis of the deposited data

How the results depend on the processing

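The counts of called genes stayed within 1.5 times under each alternative run: 16923 to 19914 over all 10 days (18178 as reported), 10803 to 12269 for D7 against D0 (11622), 8636 to 10618 for D18 against D7 (9761) and 7665 to 9643 for D32 against D18 (8822), libraries left out included. Without scaling factors the median of all genes moved by 0.195, 0.111 and 0.09 on the log2 scale in these spans. Of the alternative values of the members' log2 changes, 1090 moved by less than the replicate spread and 17 by more, and no called one changed sign; the change of Egflam for D7 against D0 ranged between 1.35 and 3.38. Taken over all days, replicate numbers showed no general pairing: 48 of 135 same-number pairs of deviations had a correlation over 0.1 (median 0.039). Replicate 2 was nevertheless the library with few Rpl3 pseudogene reads on every day from D10 to D25, so numbers were tied to the library sets there. With the replicate block 18227, 11702, 9887 and 8925 genes were called.

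The Dmd shares moved most with the unit. Per kilobase, Dmd-001 held 0.400%, 0.256%, 0.831%, 1.56%, 2.53%, 8.60%, 18.4%, 24.3%, 24.9% and 26.9% at D0 to D32, and the Dp71-start transcripts 68.8%, 72.2%, 64.8%, 59.9%, 60.2%, 49.5%, 31.7%, 21.9%, 13.4% and 15.4%, in the order of days. In counts Dmd-001 led from D18 on. Per kilobase the D22 values lay within their spread, and Dmd-001 lay above the Dp71-start transcripts in every library from D25 on. It did not lead over all others there. The transcripts outside the exon 1, Dp71 and Dp260 starts together held more than Dmd-001 in each library of D25 and D32. In the libraries with few Rpl3 pseudogene reads (1 a day), Dmd-001 held 9.27% at D10 and 48.3% at D15, and the Dp71-start transcripts 77.1% at D10, 37.5% at D15 and 4.12% at D25. The cause was not tested. Depth limits Sgcd, Sgca, Sgcz, early Egflam and the Dmd-010 and Dmd-012 fragments, which rest on few counts.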
